A study of Mus musculus with 8 samples.

Results

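Of the 8 liver tumors of the series, 5 had a chromosome 15 level above a set threshold and 3 did not. These 5, called gain tumors, were compared with the 3 other tumors over the rest of the genome. Each tumor came from a different male FAH-/- mouse, and its DNA, labelled with Cy5, was hybridized on an array together with Cy3-labelled liver DNA pooled from 6 FAH+/+ littermates, also male. Tyrosine breakdown ends with the fumarylacetoacetate hydrolase made from Fah, and mice without this enzyme depend on NTBC, a drug that blocks the pathway further upstream. All 8 mice had been held at 2.5% of the usual NTBC dose for between 6 and 12 months, so genotype, sex and treatment were shared by both groups. The reference was a single pool, no tumor-free liver of a FAH-/- mouse was on an array, and the share of tumor cells in the samples was not measured. The arrays name no genes, and the probes inside Fah were not identified here. Tumors are numbered 1 to 8 in the order of deposition.

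Array comparative genomic hybridization reports the ratio of tumor DNA to reference DNA at each probe, and a chromosome present in an extra copy stands above the others in the same tumor. Changes of whole chromosomes arise when chromosomes are divided unequally between daughter cells, and a tumor often carries several of them. Mouse chromosome 15 carries Myc, whose product turns on genes of growth and ribosome production, and extra copies of this chromosome have long been known from mouse lymphomas. Gains around MYC are also frequent in human liver cancer.

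The groups were set by the mean log2 ratio of the 6877 spots on chromosome 15, after the median over chromosomes 1 to 19 of each array had been set to 0. The gain tumors were chosen by this value alone, as those with a mean above 0.33. Tumors 3, 4, 5, 6 and 8 had means of 0.476, 0.446, 0.707, 0.63 and 0.380. Tumors 1, 2 and 7 had means of 0.203, 0.265 and 0.0381. Tumor 8 therefore lay just inside the threshold and tumor 2 just outside. As these values made the groups, they are a description. Chromosome 15 was left out of every test that follows, apart from an alternative limma fit named as such.

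The tests were run on 2 scales, because the position of the value 0 decides what counts as gain or loss. On the array-median scale 0 is the median of the array. On the pattern-removed scale, the probe-by-probe ups and downs common to all arrays were taken off first. There 0 is the commonest level of each tumor, the peak of its segment levels weighted by length. It need not hold most of the genome. Chromosome 15 then stood at 0.28, 0.31, 0.69, 0.39 and 0.32 in tumors 3, 4, 5, 6 and 8 and at -0.014, 0.12 and -0.053 in tumors 1, 2 and 7. Chromosome 15 of tumor 1, at 0.20 on array medians, was thus at the commonest level of that tumor, which lay 0.217 above the array median. The gain covered the chromosome from end to end with the pattern removed: between 98.4% and 100% of its probed length was called gained in the 5 gain tumors, against at most 0.10% in the other tumors. Array medians did not separate the groups in this way, since 99.97% of chromosome 15 was called gained in tumor 1, 85.4% in tumor 2 and 17.8% in tumor 7, and tumors 1 and 2 had a whole-chromosome call there.

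**Figure D1:**
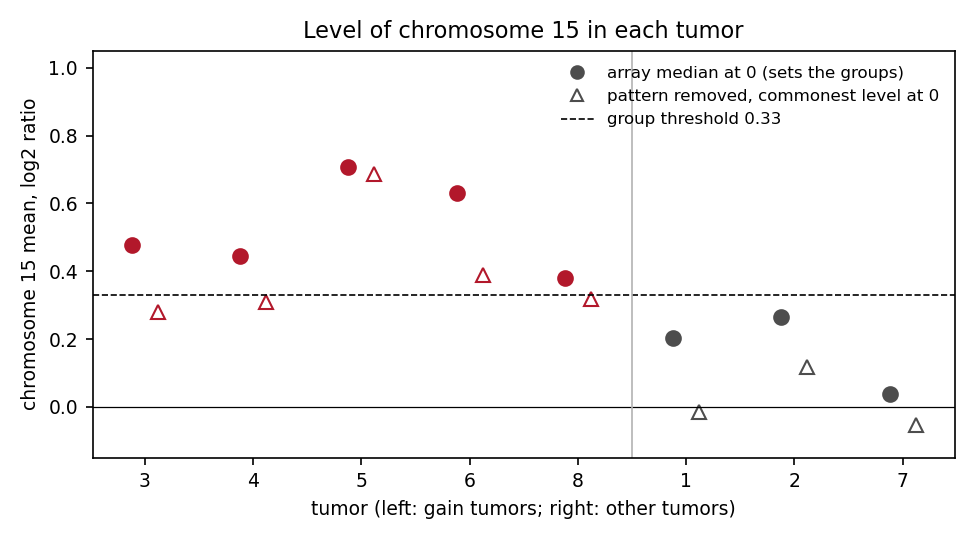
Mean log2 ratio of chromosome 15 (vertical axis) in each of the 8 tumors (horizontal axis), with circles for the array-median scale that set the groups and triangles for the pattern-removed scale. The gain tumors are in red at the left, and on the pattern-removed scale they lie between 0.28 and 0.69, above the other tumors at -0.053 to 0.12.

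The noise between neighbouring probes was 0.62 to 0.65 on array medians in tumors 1 to 6 and 0.39 in tumors 7 and 8. Tumor 7 belongs to the other tumors and tumor 8 to the gain tumors, so both groups hold an array of each kind. The arrays were on 2 slides, with tumors 1 to 4 on slide 1 and tumors 5 to 8 on slide 2, and both groups are present on each slide. The number of arrays limits the precision of every comparison.

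The first comparison asked how much of the genome outside chromosome 15 was altered. The altered share of the probed length, on the pattern-removed scale, was 31.8% in tumor 3, 9.70% in tumor 4, 12.9% in tumor 5, 38.8% in tumor 6 and 14.5% in tumor 8. It was 19.1% in tumor 1, 2.05% in tumor 2 and 7.43% in tumor 7. The highest shares, in tumors 6 and 3, belonged to gain tumors and the lowest, in tumors 2 and 7, to other tumors, but tumor 1 lay above tumors 4, 5 and 8. The mean was 21.5% ± 12.9 (SD, n = 5) in the gain tumors and 9.53% ± 8.72 (SD, n = 3) in the other tumors. The difference of 12.0 ± 7.66 percentage points (SE) did not pass a two-sided exact permutation test (exact p = 0.196). It was 10.2 percentage points within slide 1 and 14.6 within slide 2.

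On array medians the altered shares were 33.1%, 22.7%, 12.9%, 74.0% and 14.5% in tumors 3, 4, 5, 6 and 8, and 87.6%, 4.16% and 7.73% in tumors 1, 2 and 7. Tumor 1 had the highest share of all on this scale, of which 69.3% of the length was called gained, while 0.857% was called gained on the pattern-removed scale. The means were 31.4% ± 25.1 (SD, n = 5) and 33.1% ± 47.2 (SD, n = 3), and the difference was -1.71 ± 29.4 percentage points (SE, exact permutation p = 0.964). Without tumor 1 the difference was 25.5 percentage points (exact permutation p = 0.238). Without tumor 4, 5 or 8 it was 0.478, 2.92 or 2.53 percentage points. The direction of this comparison therefore depended on the scale and, on array medians, on which tumors were included.

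Most of what was altered outside chromosome 15 was loss once the commonest level was at 0. The lost share was 31.8%, 9.0%, 0.513%, 38.7% and 13.5% in tumors 3, 4, 5, 6 and 8, and 18.2%, 1.99% and 7.11% in tumors 1, 2 and 7. Tumor 5 was the gain tumor without this pattern. It lost less than any other tumor and had 12.3% of its length gained, against at most 1.04% in the other 7. The mean lost share was 18.7% ± 16.0 (SD, n = 5) against 9.11% ± 8.31 (SD, n = 3), a difference of 9.60 ± 8.62 percentage points (SE, exact permutation p = 0.393). The mean gained share was 2.82% ± 5.34 (SD, n = 5) against 0.411% ± 0.406 (SD, n = 3), with an exact permutation p of 0.714, and without tumor 5 the gained shares differed by 0.034 percentage points. On array medians the lost share differed by 2.14 ± 8.02 percentage points (SE, exact permutation p = 0.839) and the gained share by -3.85 ± 22.6 (SE, exact permutation p = 0.946).

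**Figure D2:**
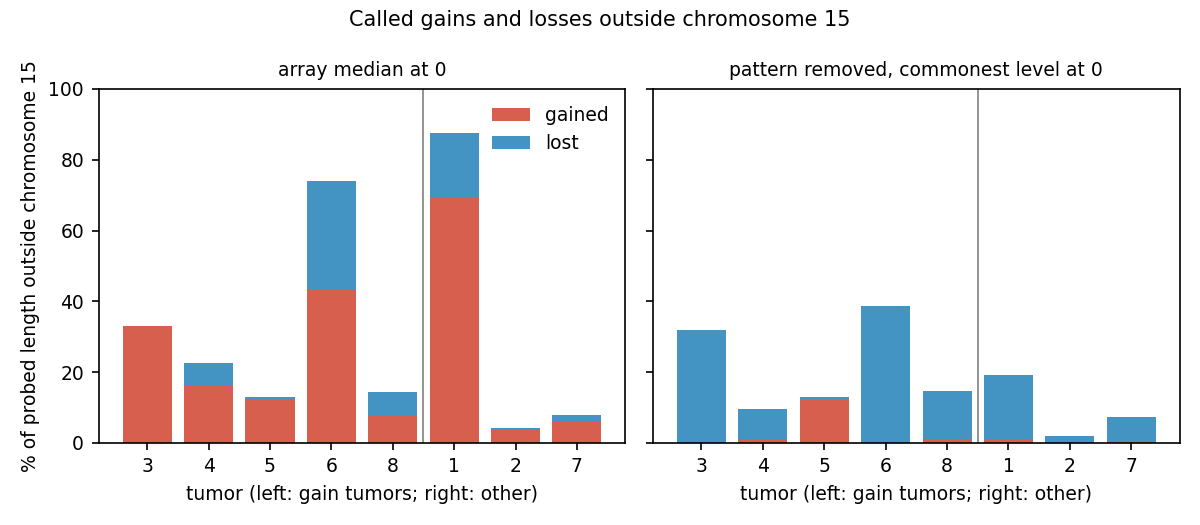
Percent of the probed length outside chromosome 15 called gained (red) or lost (blue) in each tumor, on array medians at the left and on the pattern-removed scale at the right, with the gain tumors left of the grey line. On the pattern-removed scale tumors 6 and 3 reach 38.8% and 31.8%, nearly all of it loss, and tumor 5 is the tumor whose share is mostly gain.

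Whole chromosomes were called gained or lost where at least 80% of the probed length was called in that direction. Of the 95 pairs of a gain tumor and a chromosome outside 15, 13 were lost on the pattern-removed scale (13.7%), and 3 of the 57 pairs in the other tumors (5.26%). Tumor 6 lost chromosomes 8, 9, 12, 13, 14 and X, tumor 3 lost chromosomes 1, 3, 6, 7 and 18, and tumors 4 and 8 had a whole-loss call of chromosome 12 alone. Such calls depend on the rule. Chromosome 14 of tumor 8 had no whole call at a mean of -0.27, while chromosome 18 of tumor 3 had one at -0.26. Among the other tumors, tumor 1 lost chromosomes 4, 12 and 13, and tumors 2 and 7 lost none. The gain tumors thus had 5, 1, 0, 6 and 1 whole losses in the order of their numbers and the other tumors 3, 0 and 0, a difference in means of 1.6 ± 1.57 (SE, exact permutation p = 0.464). Leaving out 1 tumor at a time moved it from 0.75 without tumor 6 to 2.6 without tumor 1. Tumor 5 alone held further whole gains, of chromosomes 14, 16 and 17, which are 3 of the 95 pairs in the gain tumors (3.16%) against 0 of 57 in the other tumors (0.00%). With all of these gains in a single tumor of the larger group, every split differs by at least as much as the observed one. The test (exact permutation p = 1.0) therefore had a fixed outcome and cannot tell whether whole gains differ between the groups.

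On array medians the losses of tumors 1, 4, 6 and 8 and the gains of tumor 5 were called as well, while those of tumor 3 were not, since its lower level there lay between -0.12 and -0.07. Whole losses then made up 8.42% of the pairs in the gain tumors and 5.26% in the other tumors, and whole gains 17.9% and 24.6%. Of the 14 whole gains in the other tumors, 13 lay in tumor 1. The exact permutation p was 0.839 for losses and 0.857 for gains. The exact test has 56 splits of the 8 tumors and cannot give a p below 0.0179, and over the 12 tests of shares, whole calls and segment numbers on both scales every adjusted p was 1.0.

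**Figure D3:**
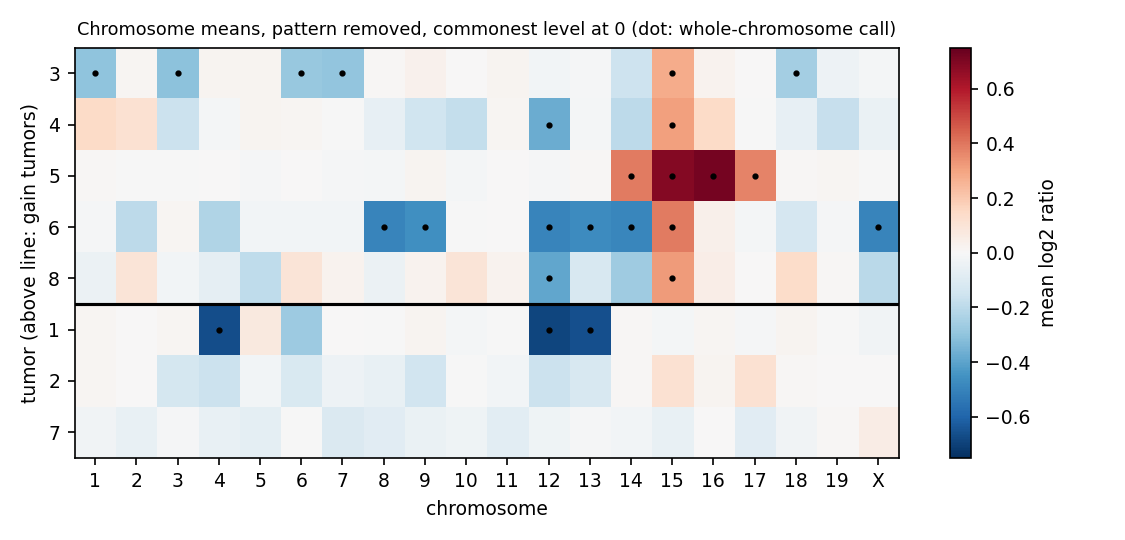
Mean log2 ratio of each chromosome (columns) in each tumor (rows) on the pattern-removed scale, with red above and blue below the commonest level of the tumor and a dot where the whole chromosome was called. Chromosome 15 is called in each of the 5 gain tumors above the line, while the losses range from 0 chromosomes in tumors 2, 5 and 7 to 6 in tumor 6, with chromosome 12 lost in tumors 1, 4, 6 and 8.

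Chromosome means outside chromosome 15 were then compared one chromosome at a time. No chromosome passed, with 0 of 19 (0.0%) at an adjusted p under 0.05 on either scale by the exact permutation test. This test could not call a single chromosome. At the smallest possible exact permutation p of 0.0179, chromosome 11 alone had an adjusted p of 0.339 over the 19 chromosomes. The 0 called therefore does not show that the groups were alike. The unadjusted exact permutation p was under 0.05 for 0 of the chromosomes on array medians and for chromosome 11 on the pattern-removed scale. The largest differences on array medians are described below, upward for chromosomes 4, 16 and 13 and downward for chromosomes X, 14 and 8.

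Chromosome 4, which carries the cell-cycle inhibitor Cdkn2a, the chromatin remodeller Arid1a and the transcription factor Jun, was higher in the gain tumors, by 0.22 ± 0.16 (SE, exact permutation p = 0.107). On array medians it was at 0.20, 0.11, 0.009, 0.002 and -0.012 in tumors 3, 4, 5, 6 and 8 and at -0.46, -0.024 and 0.025 in tumors 1, 2 and 7. The difference rested on the loss in tumor 1: without that tumor it was 0.061. With the pattern removed it was 0.24 ± 0.19 (SE, exact permutation p = 0.125), with -0.67 in tumor 1, -0.16 in tumor 2, -0.058 in tumor 7 and -0.23 to 0.021 in the gain tumors. Within slide 2 the difference on array medians was -0.025, against 0.40 within slide 1.

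Chromosome 16, which carries Hgd, the homogentisate dioxygenase of tyrosine breakdown, differed by 0.16 ± 0.11 on array medians and 0.18 ± 0.13 on the pattern-removed scale (SE, exact permutation p = 0.375 and 0.393). On the latter scale it was at 0.026, 0.14, 0.72, 0.039 and 0.052 in tumors 3, 4, 5, 6 and 8 and at 0.014, 0.021 and 0.0055 in tumors 1, 2 and 7. The groups did not overlap there, which was so for 2 of 19 chromosomes (10.5%), the other being chromosome 11. Without tumor 5 the chromosome 16 difference on that scale was 0.051. Chromosome 11, with Trp53, the p53 tumor suppressor, Nf1, Nf2 and Brca1, lay between 0.0021 and 0.029 in the gain tumors and between -0.082 and -0.005 in the other tumors. Its difference of 0.050 ± 0.024 (SE) had the smallest p possible (exact permutation p = 0.0179, adjusted p = 0.339), but on array medians the groups overlapped and the difference was 0.029 ± 0.072 (SE, exact permutation p = 0.679). No tumor had a whole-chromosome call of chromosome 11 on the pattern-removed scale.

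Chromosome 13, the site of the telomerase gene Tert, differed by 0.12 ± 0.18 on array medians and 0.14 ± 0.22 on the pattern-removed scale (SE, exact permutation p = 0.482 and 0.571). It was at -0.47 in tumor 6 on the pattern-removed scale and at -0.12 in tumor 8 but within 0.014 of 0 in tumors 3, 4 and 5, and at -0.66, -0.12 and -0.0089 in tumors 1, 2 and 7. One tumor of each group had therefore lost it, and without tumor 1 the difference turned to -0.057. Chromosome X differed by -0.19 ± 0.078 on array medians and -0.16 ± 0.096 on the pattern-removed scale (SE, exact permutation p = 0.143 and 0.179). It was low in tumors 6 and 8, at -0.50 and -0.20 on the pattern-removed scale, and between -0.052 and -0.001 in the other gain tumors. The other 3 tumors lay at -0.025, 0.0023 and 0.055.

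Chromosomes 8 and 9 were lost as a whole in tumor 6 alone, at -0.50 and -0.46 on the pattern-removed scale. The other gain tumors ranged from -0.064 to 0.0077 on chromosome 8 and from -0.15 to 0.031 on chromosome 9. Tumors 1, 2 and 7 were at -0.0043, -0.057 and -0.083 on chromosome 8 and at 0.021, -0.15 and -0.049 on chromosome 9, within or near the range of the gain tumors that kept these chromosomes. Tat, the first enzyme of tyrosine breakdown, lies on chromosome 8, and Ctnnb1, the Wnt effector beta-catenin, Yap1, the effector of the Hippo pathway, and Atm, a kinase of the DNA damage response, lie on chromosome 9. The differences between the groups on that scale were -0.074 ± 0.097 for chromosome 8 and -0.049 ± 0.11 for chromosome 9 (SE, exact permutation p = 0.875 and 0.857). On array medians they were -0.096 ± 0.095 and -0.071 ± 0.10 (SE, exact permutation p = 0.375 and 0.518). Chromosome 17, with Tsc2, Axin1 and Cdkn1a, differed by 0.063 ± 0.095 with the pattern removed and by 0.042 ± 0.094 on array medians (SE, exact permutation p = 0.768 and 0.679). It was high in tumor 5, at 0.37 on the former scale. The remaining gain tumors ranged from -0.017 to 0.0036, and tumors 1, 2 and 7 were at -0.0089, 0.11 and -0.085.

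Chromosome 14 carries the retinoblastoma gene Rb1 and the Hippo kinase gene Lats2. It departed from the commonest level in every gain tumor, but not in the same direction. With the pattern removed it was at -0.15, -0.20, 0.39, -0.49 and -0.27 in tumors 3, 4, 5, 6 and 8, whereas tumors 1, 2 and 7 were at 0.0064, 0.0072 and -0.019. The signed difference was -0.14 ± 0.15 (SE, exact permutation p = 0.482), and it ranged from -0.055 without tumor 6 to -0.27 without tumor 5, the gain tumor that gained it. On array medians it was -0.16 ± 0.13 (SE, exact permutation p = 0.321). The distance from the commonest level in either direction, added as a measure after the values had been seen, was 0.30 ± 0.14 (SD, n = 5) in the gain tumors and 0.011 ± 0.0069 (SD, n = 3) in the other tumors. The groups did not overlap in this distance, which again was so for 2 of 19 chromosomes (10.5%), and the test over 19 chromosomes was not passed (exact permutation p = 0.0357, adjusted p = 0.679).

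The called parts of chromosome 14 differed. In tumor 4 the stretch chr14:8526343-60111058 (mm9) was called lost, and in tumor 3 the stretches chr14:60785903-73586623, chr14:73627505-118416278 and chr14:119330641-125164256. The called losses of these tumors lay on opposite sides of a point near the same position. In tumor 4 this rests on the call threshold of 0.2, since the called stretch was at -0.22 and the whole chromosome at -0.20. The loss of tumor 4 is therefore not shown to stop at that point. Tumor 6 lost the whole chromosome, tumor 8 lost 4 stretches of at least 5 Mb between chr14:8526343-24890409 and chr14:118170191-123902552, and tumor 5 gained it whole.

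Chromosome 12 carries Akt1, a growth kinase, Sav1, an adaptor of the Hippo kinases, and Gstz1, which acts just before Fah in tyrosine breakdown. It was lost as a whole in 3 of the 5 gain tumors, 4, 6 and 8, and in 1 of the 3 other tumors, tumor 1. Its values on the pattern-removed scale were -0.023, -0.37, -0.0063, -0.49 and -0.39 in tumors 3, 4, 5, 6 and 8 and -0.69, -0.16 and -0.033 in tumors 1, 2 and 7. The means differed by 0.039 ± 0.23 there and by 0.018 ± 0.19 on array medians (SE, exact permutation p = 0.857 and 0.929), and without tumor 1, 3 or 5 the pattern-removed difference was -0.16, -0.019 or -0.023.

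**Figure D4:**
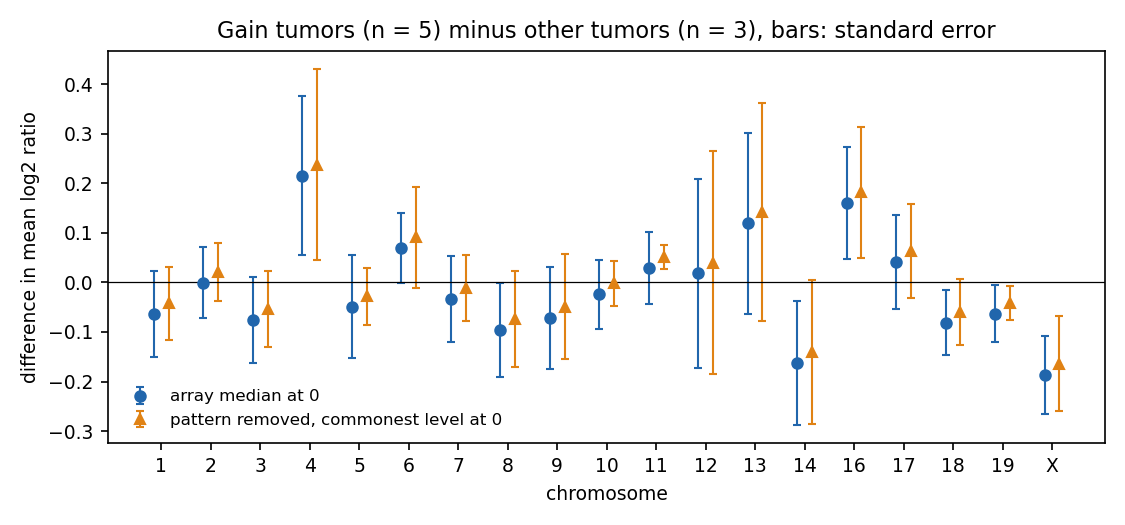
Difference in mean log2 ratio between the 5 gain tumors and the 3 other tumors for each chromosome outside 15 (horizontal axis), on array medians (circles) and on the pattern-removed scale (triangles), with standard errors as bars. Most bars reach or cross 0, and the largest differences are those of chromosomes 4, 16, 14 and X.

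At finer resolution, limma compared the groups in 2430 bins of 1 Mb outside chromosome 15. It called 0 bins higher and 0 lower (0.0% each) at an adjusted p under 0.05 on either scale. At an unadjusted limma p under 0.05, 53 of the 2430 bins were higher and 55 lower on array medians, and 35 higher and 1 lower on the pattern-removed scale. Chance alone would on average put a share of 0.05 of the bins there, more than were found on either scale. The split by direction was not tested. The exact permutation test on chromosomes, which could not call a single chromosome, also called 0. The lowest p on both scales was that of chr4:153000001-154000000 (mm9), a bin with 76 probes, where the limma difference was 0.35 ± 0.12 on array medians (SE, limma adjusted p = 0.921) and 0.37 ± 0.099 on the pattern-removed scale (SE, limma adjusted p = 0.999). The pattern-removed values of this bin were 0.098, -0.0028, 0.011, -0.17 and -0.15 in tumors 3, 4, 5, 6 and 8 and -0.57, -0.27 and -0.42 in tumors 1, 2 and 7. The nearby bin chr4:151000001-152000000 had the next lowest p on array medians, with a difference of 0.33 ± 0.12 (SE, limma adjusted p = 0.921). Downward, the lowest p on array medians were those of chr14:91000001-92000000 and chr14:94000001-95000000, with differences of -0.32 ± 0.12 and -0.31 ± 0.12 (SE, limma adjusted p = 0.921 for both). The limma SE draws on the variance of all bins and was the same in each bin named here on array medians. It is therefore not the spread of the single bin. With the pattern removed the next lowest p upward was that of chr4:127000001-128000000, with a difference of 0.34 (limma adjusted p = 0.999), and the lowest downward were those of chrX:128000001-129000000 and chrX:118000001-119000000, with differences of -0.27 in both (limma adjusted p = 0.999).

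The level of chromosome 15 was next set against the other changes of the same tumor, as a description. Chromosome 15, on the pattern-removed scale, ranked first of 19 autosomes in tumors 3, 4, 6 and 8 and came after chromosome 16 in tumor 5. The next autosome stood 0.25, 0.16, 0.35 and 0.18 lower in tumors 3, 4, 6 and 8. In tumor 2, just outside the group threshold, chromosome 15 also ranked first, at 0.12, but chromosome 17 was only 0.0027 lower. In tumors 1 and 7 it ranked 15 and 12 of 19. Median values over probes gave ranks of 15 and 11 in these tumors and the same ranks in the other 6.

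Written as a change in the ratio itself, chromosome 15 rose by 21.4%, 24.0%, 61.0%, 30.9% and 24.7% over the commonest level in tumors 3, 4, 5, 6 and 8. For comparison, an extra copy beside 2 in every cell would raise the ratio by 50%, and the loss of 1 of 2 copies would lower it by 50%. The ratios give no copy numbers, since the share of tumor cells and the compression of ratios on the array were not measured. The rise of chromosome 15 was about as large as the fall of the lost chromosomes in the same tumor. The lost chromosome 12 was at -22.7% in tumor 4 and at -23.7% in tumor 8. The mean over the 6 lost chromosomes of tumor 6 was -28.5%, and over the 5 lost chromosomes of tumor 3 it was -18.1%. The 6 of tumor 6 include X, at -29.2%. Male mice have 1 copy of X, so the 50% for the loss of 1 of 2 copies does not apply to it. The rise divided by the mean fall was 1.18, 1.06, 1.08 and 1.04 in tumors 3, 4, 6 and 8, with a mean of 1.09 ± 0.061 (SD, n = 4). With the probe pattern kept and the commonest level at 0 the mean was 1.07 ± 0.073 (SD, n = 4). These ratios were close to each other although the rises themselves ran from 21.4% to 30.9%. They depend on the call rule, since only chromosomes with a whole-loss call entered the mean fall. Chromosome 14 of tumor 8, at -16.8%, was left out, while chromosome 18 of tumor 3, at -16.2%, was counted.

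Tumor 5 had no lost chromosome to compare with, and its gains fell on 2 levels. Chromosomes 15 and 16 were 61.0% and 64.2% above the commonest level, and chromosomes 14 and 17 were 31.2% and 29.2% above it. Tumor 4 also had shallower changes than those of chromosomes 15 and 12. Chromosomes 1, 2 and 16 were 10.6%, 8.25% and 10.3% above the commonest level, and chromosomes 3, 9, 10, 14 and 19 were at -10.6%, -9.82%, -11.6%, -12.8% and -11.4%. Tumors 6 and 8 had shallower steps too, such as chromosomes 2 and 4 of tumor 6 at -12.7% and -14.5%. In tumor 8 chromosome 18 was at 9.88%, chromosome 5 at -12.4% and chromosome 14 at -16.8%. In tumor 2 chromosome 15 was 8.40% and chromosome 17 8.19% above the commonest level, while chromosomes 3, 4 and 9 were at -8.70%, -10.5% and -9.57%. The chromosome 15 step of tumor 2 was under that of each gain tumor, while its other steps were of about the size of the shallower ones in tumor 4. The chromosome 15 rise of tumor 2 was 0.783 times the fall of its lowest autosome, chromosome 12. In tumor 1 chromosomes 4, 12 and 13 were at -37.0%, -38.1% and -36.7%, the deepest falls of autosomes in any tumor, beside a chromosome 15 at -0.966%. In tumor 7 all autosomes lay between -7.08% and 0.507%.

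**Figure D5:**
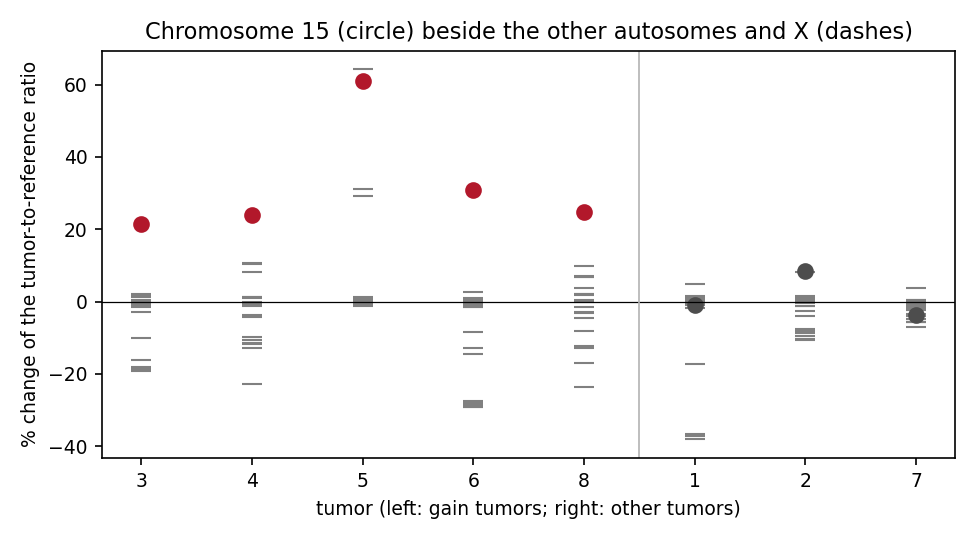
Percent change of the tumor-to-reference ratio against the commonest level of each tumor, on the pattern-removed scale, for chromosome 15 (circles) and for every other autosome and X (dashes). In tumors 3, 4, 6 and 8 the circle, at 21.4% to 30.9%, is about as far above 0 as the lowest dashes are below it, and in tumor 5 it lies beside chromosome 16 with chromosomes 14 and 17 at a lower level.

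Changes of part of a chromosome were also present in both groups. With the pattern removed, lost stretches of at least 5 Mb on chromosomes without a whole-chromosome call numbered 3, 4, 1, 11 and 14 in tumors 3, 4, 5, 6 and 8 and 1, 2 and 5 in tumors 1, 2 and 7. Gained stretches of that length were found in tumors 1, 4 and 8, with 1, 1 and 2 of them. Shallow levels near the call threshold of 0.2 were cut into several stretches; in tumor 6 all 11 lay on chromosomes 2 and 4. The deeper ones included chr6:33230044-94158984 in tumor 1, 60.9 Mb at -0.62, and chr5:46497585-54178348 in tumor 5, 7.72 Mb at -0.52. Tumor 4 lost chr8:87594415-110087005, 22.5 Mb at -0.35. Tumor 1 had the highest partial gain, chr5:136387909-152519030, 16.1 Mb at 0.42. These coordinates are on mm9.

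The number of segments outside chromosome 15 moved with the kind of array. On array medians it was 51, 66, 39, 45 and 195 in tumors 3, 4, 5, 6 and 8 and 51, 59 and 296 in tumors 1, 2 and 7. Tumors 7 and 8, whose arrays had the lower noise, had the highest counts in their groups. The group means of 79.2 and 135 differed by -56.1 ± 85.5 (SE, exact permutation p = 0.571), and without tumor 7 the difference was 24.2. With the pattern removed the means were 290 and 460 (exact permutation p = 0.196), with tumor 7 at 716, where the noise was also highest, at 0.21. Without tumor 7 the difference there went from -170 to -41.7. The part of noise in the segment counts was not tested.

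The genes that went with chromosome 15 could be placed by chromosome through the RefSeq table of the GRCm38 assembly, which lists 776 of 21900 protein-coding genes there (3.54%). Of 15 growth genes taken for their position, all 15 matched chromosome 15. They include Myc, the long non-coding RNA gene Pvt1 beside it, Rictor, a subunit of the mTOR complex that acts on Akt, Skp2, which marks the cell-cycle inhibitor p27 for degradation, Ghr, the growth hormone receptor, and the kinase gene Ptk2. Also on it lie Rad21, which holds sister chromatids together, Espl1, the separase that releases them, the chromatin genes Arid2, Kmt2d and Ep300, and Krt8 and Krt18, the keratins of hepatocytes. These genes share the chromosome's call in the 5 gain tumors by position, and RNA or protein was not measured.

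Elsewhere in the genome, 11 of the 19 chromosomes were lost as a whole in at least 1 gain tumor on the pattern-removed scale, and they hold 52.2% of all protein-coding genes of the table. The 3 chromosomes lost in an other tumor hold 12.9%. On array medians 6 chromosomes with 25.4% of the genes were lost in a gain tumor, and the share for the other tumors was the same 12.9%. Chromosomes gained as a whole in at least 1 gain tumor, chromosome 15 included, hold 15.4% of the genes with the pattern removed and 66% on array medians. The gene lists follow whole chromosomes, so their counts add nothing to the chromosome calls, and no list was tested against these shares.

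Of 22 liver oncogenes, 21 matched. With the pattern removed, 15 of the 21 (71.4%) lay on a chromosome lost in at least 1 gain tumor, and 6 (28.6%) did so on array medians. On both scales 4 lay on one lost in an other tumor (19%). Akt1 and Mycn were on chromosome 12, lost in 3 gain tumors and 1 other tumor on both scales. Met and Braf were on chromosome 6 and Pik3ca on chromosome 3, which were called lost in tumor 3 with the pattern removed but not on array medians. Myc and Vegfa were the oncogenes of the list on a chromosome gained as a whole with the pattern removed (9.52%, against 15.4% of all protein-coding genes). On array medians 10 were on one gained in at least 1 gain tumor (47.6%, against 66% of all protein-coding genes).

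Of 26 tumor suppressor and checkpoint genes, 9 (34.6%) lay on a chromosome lost in at least 1 gain tumor with the pattern removed, and 5 (19.2%) on array medians. Rb1, Lats2, Sav1, Atm and Keap1 were among them on both scales, whereas Apc and Smad4, on chromosome 18 of tumor 3, were among them with the pattern removed alone. Further, 6 (23.1%) lay on a chromosome gained in a gain tumor with the pattern removed, against 15.4% of all protein-coding genes. They were Cdkn1a, Tsc2, Axin1 and Arid1b on chromosome 17 and Rb1 and Lats2 on chromosome 14, which tumor 6 lost and tumor 5 gained. In the other tumors 3 (11.5%) lay on a lost chromosome on both scales, Cdkn2a, Arid1a and Sav1. Of the 6 tyrosine breakdown genes, Tat and Gstz1 lay on a chromosome lost in at least 1 gain tumor on both scales, and Gstz1 also on one lost in tumor 1. Fah itself, on chromosome 7, did so in tumor 3 with the pattern removed alone.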

How the data were processed

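Per the labels, 1.5 µg of DNA per hybridization was digested and labelled. The images were extracted with Agilent Feature Extraction 10.7.3.1, per the submitters' processing notes. Per the file headers, Feature Extraction had taken off the background, removed spatial trends and scaled the dyes linearly before the deposited intensity of each channel was written, and the deposited log10 ratios and the deposited series table derive from them, the table differing from the arrays' ratios by at most 0.00498. Per the file headers other columns hold yes-or-no quality marks, and positions are on mm9. The dyes were not swapped.

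Log2 ratios of the 174305 spots that are not controls were computed, outlier spots dropped (115 to 221 per array), spots of a probe averaged (170305 probes) and arrays centred on the autosomal median. Both channels were well above background for 97.0% to 99.9% of the spots. Log2 ratios correlated at 0.84 to 0.91 between tumors 1 to 6 and at 0.67 to 0.79 in pairs with tumor 7 or 8. For the pattern-removed scale, each probe's median over arrays, after each array's chromosome medians were taken off, was scaled to each array and subtracted, which left correlations of -0.22 to 0.30, and the commonest segment level (smoothing 0.03) was set to 0. Segments came from circular binary segmentation (split z 5.41, merging below a z of 4, at least 5 probes) and were called at 0.2. Chromosome 15 was left out of shares, counts and tests, apart from an alternative limma fit. Groups were compared by two-sided exact permutation tests over 56 splits, and 1 Mb bins with at least 10 probes by limma 3.58.1 in R 4.3.3, with Benjamini-Hochberg adjustment. The normexp alternative used median spot signals. The scripts (numpy 2.4.6, numba 0.67.0 and pandas 2.3.3 under Python 3.11.15) were tested on simulated data.

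Named are chromosomes called whole in at least 1 tumor on both scales, those with the 3 largest differences each way, the 2 bins with the lowest p each way on each scale, and genes of 6 lists. Chromosome 11 and the partial changes were chosen after their values were seen. The groups, members and lists were chosen with earlier results of these data known. Not every gene of the lists is reported here by name.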

Additional observations from a re-analysis of the deposited data

Results flagged for a closer look

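In groups of 5 or 8 tumors, a value was singled out where its gap to the next exceeded Dixon's critical value for that number. Chance does so in about 1 of 20 independent groups chosen beforehand, and 12 values were found in 42 groups tested. That rate does not apply to these groups. The chromosomes among them were taken because at least 1 tumor had a whole call of them on both scales. The same measures also recur on both scales, and some of them over both 5 and 8 tumors. The values are therefore a description. Among the 5 gain tumors, tumor 6 stood apart on array medians by its lost share of 30.8% and its 6 whole losses. Tumor 6 also stood apart on the pattern-removed scale by its means of chromosome 8, -0.496, and chromosome 13, -0.473. Tumor 5 stood apart on the pattern-removed scale, both among the gain tumors and among all 8, by its gained share of 12.3% and its 3 whole gains. Its chromosome 16 mean stood apart among the gain tumors on both scales, at 0.731 on array medians and 0.716 on the pattern-removed scale, as did its chromosome 17 mean of 0.370 on the latter. Tumor 8 stood apart among the gain tumors by its 195 segments on array medians, on an array with a noise of 0.39.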

How the results depend on the processing

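No paired analysis was possible because the labels give 1 group of 8 tumors, and the 2 groups share no replicate numbers. Of 589 recomputed values, 276 and 252 values (group-level and single-chromosome) did not turn direction or change side of the threshold, while 32 and 25 turned direction. The former counts include differences that went to 0, and counts that were 0 throughout. They also include a grouping by whole-chromosome calls that gave the same 5 gain tumors, so they do not measure stability. The bins called by limma stayed at 0 in every setting run, also with the bins of chromosome 15 in the fit. On array medians the altered, gained and whole-gain differences (-1.71, -3.85 and -1.27) turned with the position of 0. With the commonest level at 0 they were 11.8, 2.27 and 0.6, and with the pattern removed too 12.0, 2.41 and 0.6. Centring without chromosome 15 gave 2.99 altered and 1.62 gained. Normexp gave 2.36, 0.232 and 0.2 and a chromosome 12 difference of -0.014, and probes well above background gave 1.83 altered. With slide as a block they were 4.06 altered and 1.63 gained, and chromosome 12 was -0.016 on both scales. A group threshold of 0.2, which moves tumors 1 and 2 to the gain tumors and leaves tumor 7 alone, gave 27.8, 20.6 and 4.43. On array medians it turned chromosomes 4, 8, 9, 12 and 13 to -0.051, 0.040, 0.0063, -0.22 and -0.14, and on the pattern-removed scale chromosomes 4, 12 and 13 to -0.10, -0.27 and -0.19. At a call threshold of 0.3 the array-median differences were 3.64 gained, -5.40 lost, 0.6 whole gains and -1.0 whole losses. Leaving out 1 tumor each gave, on array medians, -16.2 to 25.5 altered, -15.1 to 17.7 gained, -3.32 to 7.83 lost, -3.6 to 2.9 whole gains, -0.5 to 1.6 whole losses and -98.3 to 24.2 segments. The same ranges were -0.12 to 0.00043 for chromosome 9, -0.15 to 0.12 for chromosome 12, -0.047 to 0.22 for chromosome 13 and -0.034 to 0.093 for chromosome 17. On the pattern-removed scale they were 7.71 to 16.8 altered, 4.60 to 14.2 lost, 0.75 to 2.6 whole losses and -270.2 to -41.7 segments, and -0.11 to 0.019 for chromosome 8, -0.093 to 0.039 for chromosome 9, -0.16 to 0.17 for chromosome 12, -0.057 to 0.27 for chromosome 13 and -0.012 to 0.12 for chromosome 17. Chromosome 4 on array medians reached an unadjusted exact permutation p of 0.0357 when centred without chromosome 15 and 0.0476 without tumor 7, over a range of p up to 0.571. The cause of these changes was not tested. The chromosome 15 rise over the losses, with the pattern kept, moved to 1.10 in tumor 3 and 0.972 in tumor 8. The number of arrays, with 3 in 1 group, limits all comparisons.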

Other observations

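Chromosome Y, with 122 probes, was in no comparison. On the pattern-removed scale it was at -0.002, 0.045, -0.021, -0.66 and -0.14 in gain tumors 3, 4, 5, 6 and 8 and at -0.12, 0.056 and 0.11 in tumors 1, 2 and 7. Tumor 6, the tumor with the most whole losses, thus had the lowest value, below that of its chromosome X at -0.50, and on array medians it was also lowest, at -0.44. Along chromosome 15 the 1 Mb bins of the pattern-removed scale varied least in tumor 5, with an SD of 0.020 over 101 bins, and most in tumor 7, with an SD of 0.12 and bins from -0.33 to 0.20.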
